A study of Mus musculus with 16 samples.

Results

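The collagen genes are the 44 mouse genes whose whole symbol reads Col, a number, a and a number, such as Col1a1. Each was read from 1 probe set, the one of highest mean over the 16 arrays, out of 35556 probe sets on the array. By the assembly of their proteins, 11 are fibrillar, 9 form networks, 9 are fibril-associated collagens with interrupted triple helices (FACITs) and 15 belong to other types. Expression was measured with Affymetrix arrays in total RNA of hearts from 16 male C57BL/6 mice, 1 array per mouse. Mice labelled zbtb17 cKO, in which Zbtb17, encoding the transcription factor Miz1, is knocked out conditionally, and mice labelled control were studied. Both had either transverse aortic constriction (TAC), a narrowing of the aorta against which the left ventricle must pump, or sham surgery. They were 8 to 10 weeks old before surgery and hearts were taken 4 weeks later. Each genotype gave 4 sham and 4 TAC mice. The labels name neither the Cre driver nor the cells that lost Zbtb17, nor the alleles that the control mice carried.

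Collagens are secreted as triple helices of 3 chains and give the heart most of its fibrous matrix. Cardiac fibroblasts make most of the fibrillar collagens I and III, whose build-up between and around muscle cells is known as fibrosis and is a common response to pressure overload. Other types coat or link the fibrils (V, XII, XIV), form basement membranes around vessels and muscle cells (IV, XV, XVIII) or join the membranes to the interstitium (VI). In RNA from whole heart, more cells of a type and more RNA per cell cannot be told apart.

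Values are log2 values as deposited, and differences are log2 fold changes ± the standard error of the fit. Values of replicates are given in the order 1 to 4. A probe set's level was set against itself only, since probe sets differ in how brightly they read. Of the 44 genes, 43 had a mean above the limit for testing, a log2 value of 4.37. Col10a1, a collagen of growing cartilage, had a mean of 3.97 and was not tested, and the tested gene nearest to the limit was Col4a6, at 4.50. The probe set of Zbtb17 read 6.19 to 6.56 in control hearts and 6.47 to 6.62 in hearts labelled cKO. Whether it lies in the deleted part is not known here, so it does not check the genotype, and cKO stands below for hearts so labelled. The cKO TAC replicate 2 array stands apart from the others of its group for the collagens and for several marker lists, and the main results that rest on it are given with and without it. The 6 arrays on which the atrial light chain Myl7 read above 6 (control sham 3, control TAC 1 and 2, cKO sham 2, cKO TAC 1 and 2) and the 3 sham arrays on which the immediate early gene Atf3 read above 8 (control sham 3 and 4, cKO sham 1) were also left out in turn. The 12 ventricular cardiomyocyte markers, all above the limit, had means of 11.76 to 12.07 on the 16 arrays, the lowest on cKO TAC 2. Of these, 9 of 12 had a negative difference after TAC averaged over genotype (median -0.06), or 7 without cKO TAC 2, and 0 passed the test.

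The first question was which collagens differed 4 weeks after TAC. No collagen gene passed the test. With limma and Benjamini-Hochberg adjustment over 21333 probe sets, 0 of 43 passed in control hearts, 0 of 43 in cKO hearts and 0 of 43 averaged over genotype, and the share of all probe sets that passed was 0.0% in each of these comparisons. The largest differences averaged over genotype were those of Col8a1 (0.71 ± 0.29), the FACIT gene Col14a1 (0.45 ± 0.23), Col1a2 (0.42 ± 0.19), Col1a1 (0.36 ± 0.18) and Col3a1 (0.33 ± 0.14), all with a higher mean after TAC. At an unadjusted p under 0.05, 5 genes were higher averaged over genotype (Col6a2, Col8a1, Col6a1, Col3a1 and Col1a2) and 0 were lower, against 7.24% and 4.8% of all probe sets. Their adjusted p ran from 0.335 to 0.403 in the limma fit. In cKO hearts 3 genes were higher at that level (Col6a2, Col14a1 and Col8a1) and 0 lower, against 3.85% and 2.93% of all probe sets. In control hearts 0 were higher and 0 lower, against 4.9% and 3.42%. There the count was 3 higher without control TAC 3, 1 higher without cKO TAC 2 or cKO TAC 4, 1 lower without control sham 1 or control sham 4, 2 higher without the arrays of high Myl7, and 2 higher and 2 lower without the sham arrays of high Atf3.

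The direction of the differences was mixed over the family. Of the 43 genes, 25 had a positive and 17 a negative difference after TAC in control hearts, with a median of 0.03, where 54.5% of all probe sets were positive. In cKO hearts 28 were positive and 15 negative, with a median of 0.04, where 51.6% of all were positive. Averaged over genotype, 29 were positive and 14 negative (median 0.025), where 53.7% of all probe sets were positive and their median was 0.01. Single arrays moved these splits. The averaged one was 25 and 17 without cKO TAC 2, 23 and 20 without control sham 4, and 32 and 11 without control sham 2. In control hearts the positive genes numbered 19 without control sham 1 and 32 without control sham 2. In cKO hearts they numbered 23 without cKO TAC 3 and 35 without cKO TAC 1. The fibrillar type had 10 of 11 genes positive averaged over genotype and the network type 7 of 8, while the FACITs had 4 of 9 and the other types 8 of 15. Within a genotype the network type had 5 of 8 positive in control and 4 of 8 in cKO hearts, the fibrillar type 9 of 11 in each. Averaged values of Col4a1, Col4a2, Col4a4, Col4a6 and Col8a2 lay near 0 and turned negative without 1 array or another. No collagen gene had its 4 TAC arrays all above or all below its 4 sham arrays in either genotype, whereas 2.27% (higher) and 1.46% (lower) of all probe sets did in control hearts and 2.28% and 2.08% in cKO hearts. Pooled over genotype, 0 collagen genes and 0.0234% (higher) and 0.0281% (lower) of all probe sets did. The count of 5 higher genes at an unadjusted p under 0.05 rested on single arrays. It was 1 without cKO TAC 2 or cKO sham 4, 2 without control sham 1, 0 without control TAC 4, 3 without any 1 of cKO TAC 1, cKO sham 1, control TAC 2 and control sham 4, 8 without cKO sham 2 and 9 without cKO TAC 4. Without any 1 of cKO TAC 3, control TAC 3 and control sham 3 it was 7. It was 0 without the 6 arrays of high Myl7. Lower genes, 0 with all arrays, numbered 2 without control sham 4. They numbered 1 without any 1 of cKO TAC 2, cKO TAC 3, cKO sham 3 and control sham 1, and 1 without the sham arrays of high Atf3. The count of 3 higher genes in cKO hearts was 0 without any 1 of cKO TAC 2, cKO sham 3 and cKO sham 4, 5 without cKO sham 2 and 8 without cKO TAC 4, and 0 without the arrays of high Myl7. There 1 gene was lower without any 1 of cKO TAC 2, cKO TAC 3 and control sham 2.

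**Figure D1:**
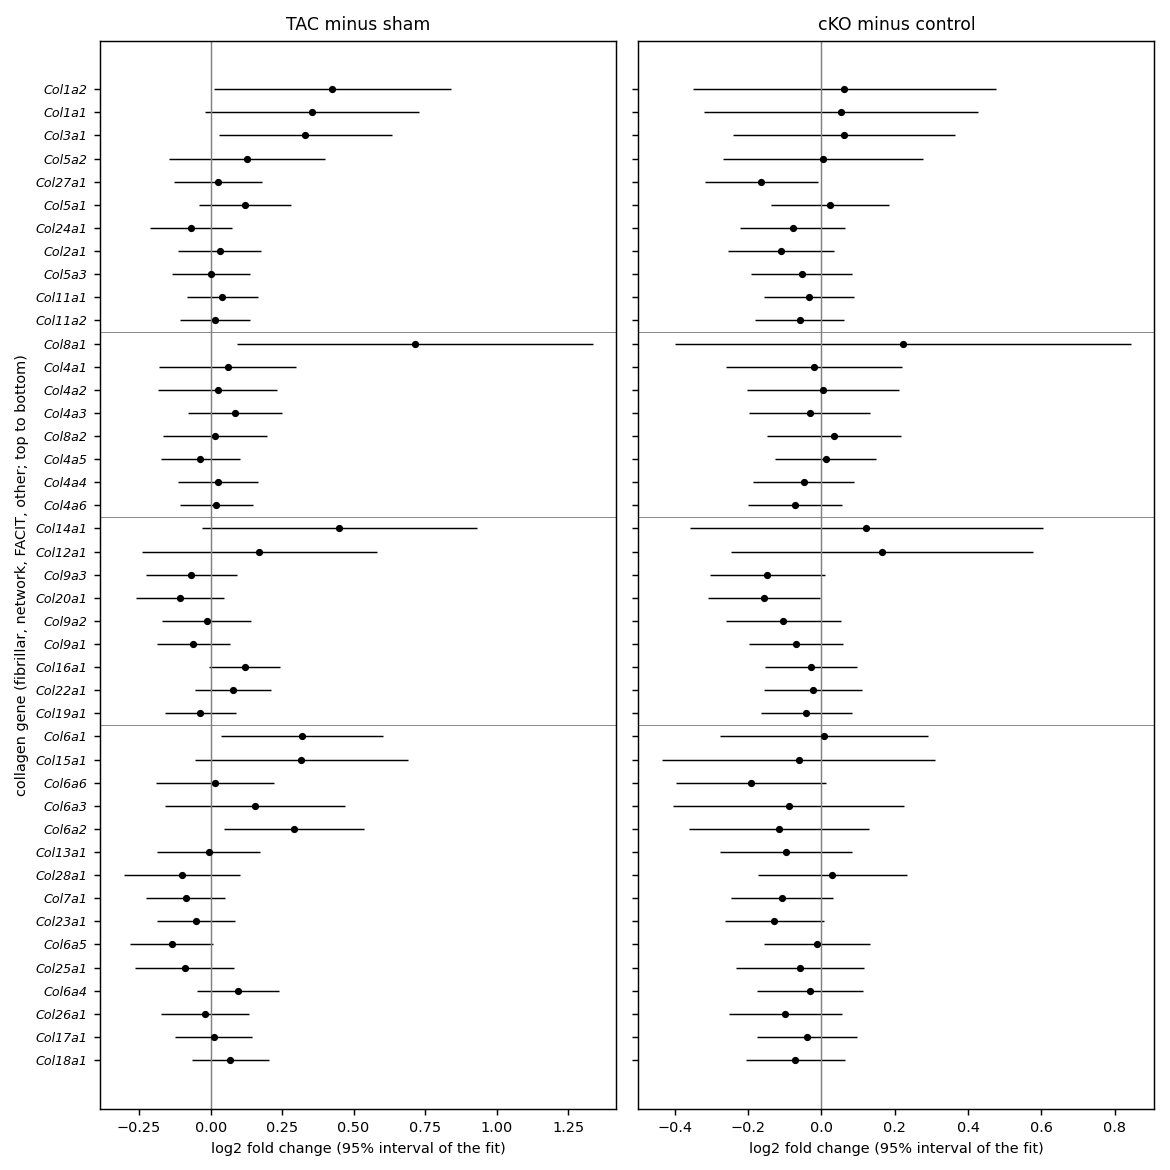
Log2 fold changes of the 43 tested collagen genes (points) with the 95% interval of the limma fit (lines), TAC minus sham averaged over genotype on the left and cKO minus control averaged over surgery on the right, by type from top to bottom. The points furthest to the right after TAC are Col8a1 (0.71), Col14a1 (0.45) and Col1a2 (0.42), whose intervals are also the widest of their types; no gene passed the adjusted test on either side.

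Among the fibrillar collagens, Col1a1 and Col1a2 encode the 2 chains of collagen I, the main fibril of scar and of the interstitium. Col1a1 read 6.79, 6.98, 7.42 and 7.19 in control sham and 7.33, 7.61, 7.01 and 7.79 in control TAC. In cKO hearts it read 7.14, 7.56, 6.95 and 6.88 after sham and 7.61, 8.26, 7.21 and 6.93 after TAC. In both genotypes 2 of 4 TAC arrays lay above every sham array and the others lay among them. The difference was 0.34 ± 0.25 in control hearts, 0.37 ± 0.25 in cKO hearts and 0.36 ± 0.18 averaged (95% interval -0.02 to 0.73, limma adjusted p = 0.434). Without cKO TAC 2 it was 0.12 in cKO hearts.

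Col1a2 read 6.79, 7.13, 7.56 and 7.03 in control sham and 7.39, 7.65, 7.0 and 7.76 in control TAC. In cKO hearts its values were 7.05, 7.50, 6.96 and 6.84 after sham and 7.74, 8.48, 7.37 and 6.87 after TAC. The high arrays were those of Col1a1. Its differences were 0.32 ± 0.28 in control and 0.53 ± 0.28 in cKO hearts, and 0.42 ± 0.19 averaged (adjusted p = 0.403 in the limma fit), or 0.28 without cKO TAC 2 and 0.28 without the 6 arrays of high Myl7. In cKO hearts alone it was 0.24 without cKO TAC 2.

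Col3a1, the chain of collagen III, which is plentiful in vessel walls and in early fibrosis, read 6.88, 6.66, 7.18 and 6.83 in control sham and 7.08, 7.15, 6.89 and 7.46 in control TAC. After sham and TAC in cKO hearts it read 6.72, 7.0, 6.97 and 6.81, and 7.15, 8.04, 7.08 and 6.85. In each genotype the TAC arrays overlapped the sham arrays, with 1 of 4 above them in control and 3 of 4 in cKO hearts. The averaged difference was 0.33 ± 0.14 (adjusted p = 0.376), with 0.26 ± 0.20 in control and 0.41 ± 0.20 in cKO hearts. Without cKO TAC 2 the average was 0.20 and the difference in cKO hearts 0.15. The 250 bases before the RefSeq starts of Col1a2 (chr6:4505368-4505617, plus strand, GRCm38.p6) and Col3a1 (chr1:45311288-45311537, plus strand) are shown because both genes peaked on the same array. Capitals mark exact matches to 3 promoter motifs, the CCAAT box, the TATA box and the GC box, searched on both strands.
Col1a2: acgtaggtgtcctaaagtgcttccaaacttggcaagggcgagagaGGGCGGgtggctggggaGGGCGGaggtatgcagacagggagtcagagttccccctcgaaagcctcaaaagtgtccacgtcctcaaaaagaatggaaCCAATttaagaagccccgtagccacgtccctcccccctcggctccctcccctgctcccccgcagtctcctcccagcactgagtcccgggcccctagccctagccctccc
Col3a1: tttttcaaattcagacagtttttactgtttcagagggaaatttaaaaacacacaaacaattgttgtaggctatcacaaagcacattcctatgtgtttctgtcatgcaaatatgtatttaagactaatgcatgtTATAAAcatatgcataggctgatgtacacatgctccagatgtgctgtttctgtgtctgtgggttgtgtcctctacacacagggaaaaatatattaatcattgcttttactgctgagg
The Col1a2 window holds a CCAAT box that begins 109 bases before the start and GC boxes, searched as GGGCGG, that begin 205 and 188 bases before it. The Col3a1 window holds a TATAAA that begins 117 bases before the start. The matches are letters in these windows only: CCAAT was found in 33.8%, TATAAA in 12.4% and GGGCGG in 32.7% of 32851 RefSeq windows of this length, and in 13, 5 and 21 of the 35 collagen genes that have a window in the table.

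Collagen V starts and limits the width of collagen I fibrils. Col5a1 had means of 6.40 ± 0.15 (SD, n = 4) after sham and 6.45 ± 0.11 after TAC in control hearts, and 6.35 ± 0.16 after sham and 6.54 ± 0.18 after TAC in cKO hearts, and an averaged difference of 0.12 ± 0.08. Col5a2 had means of 5.44 ± 0.19, 5.52 ± 0.22, 5.40 ± 0.15 and 5.57 ± 0.46 in the same order, and its averaged difference of 0.13 ± 0.13 was 0.015 without cKO TAC 2 and -0.0025 without the arrays of high Myl7. Col5a3, a minor chain, had means of 5.67 ± 0.09, 5.65 ± 0.01, 5.60 ± 0.16 and 5.62 ± 0.15 and a difference of 0.0013 ± 0.065. The wide spread of Col5a2 in cKO TAC came with 1 array at 6.24 and 3 between 5.27 and 5.49. The remaining fibrillar genes, the cartilage collagens Col2a1, Col11a1 and Col11a2 and the developmental Col24a1 and Col27a1, had averaged differences from -0.07 (Col24a1) to 0.04 (Col11a1).

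**Figure D2:**
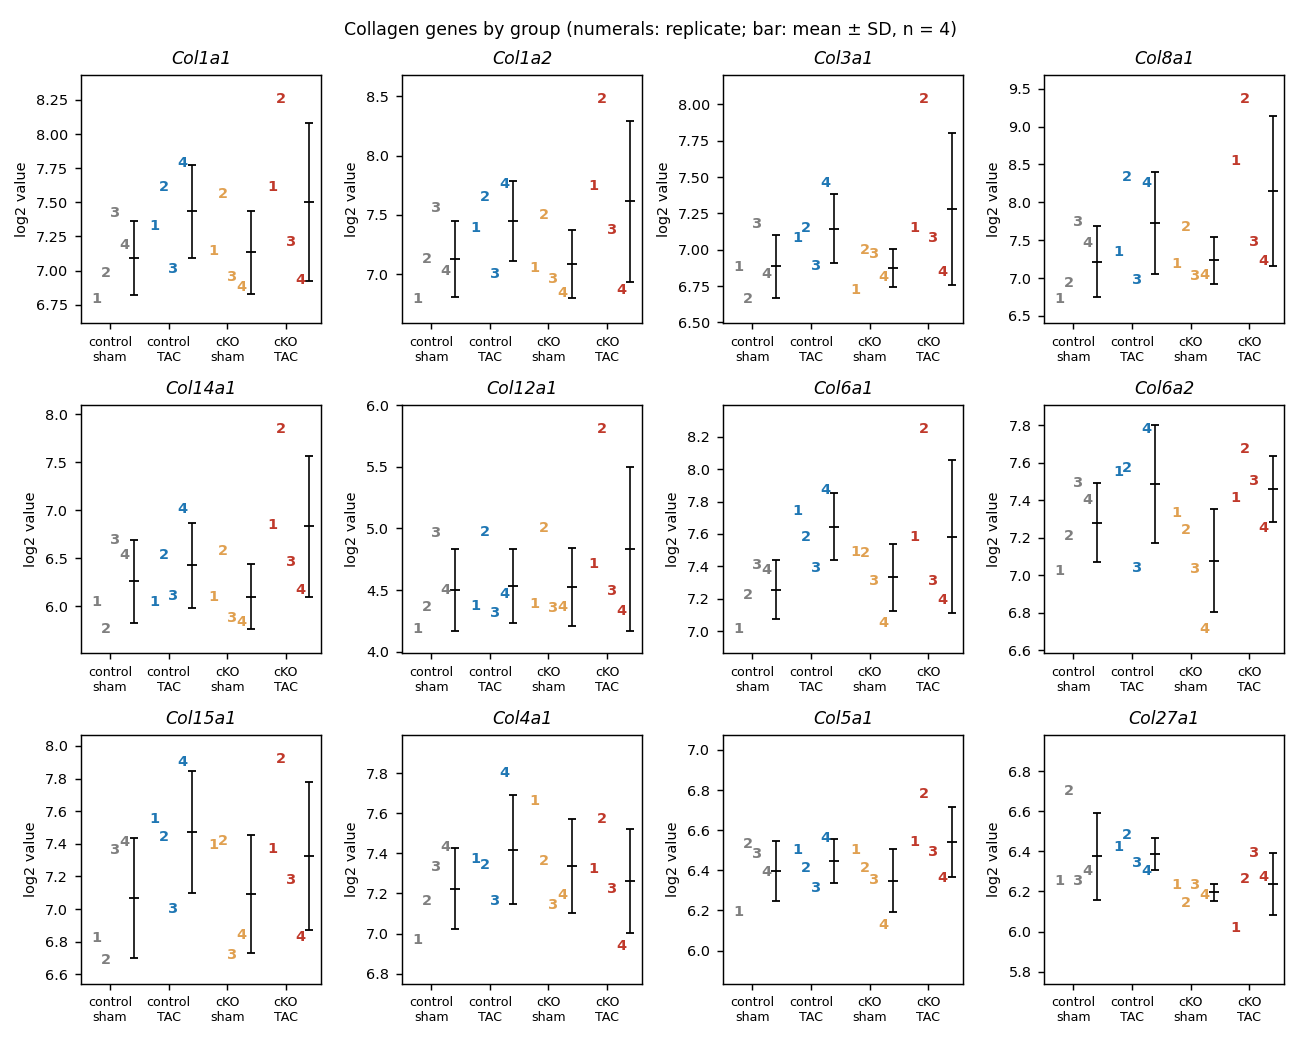
Log2 values of 12 collagen genes on each of the 16 arrays; numerals give the replicate, bars the group mean ± SD (n = 4), and each panel has its own axis, which does not start at 0. For 9 of the 12 genes the highest of all 16 arrays is replicate 2 of cKO TAC, for example 8.48 against 6.87 to 7.74 on the other 3 of its group in Col1a2, and TAC and sham arrays overlap in every panel.

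Col8a1 encodes a short-chain network collagen of vessel walls and of remodelling tissue. It read 6.72, 6.94, 7.74 and 7.46 in control sham, and 7.34, 8.33, 6.97 and 8.26 in control TAC. In cKO hearts it read 7.18, 7.68, 7.03 and 7.04 after sham and 8.54, 9.37, 7.47 and 7.23 after TAC. In each genotype 2 TAC arrays lay above all sham arrays and 2 within their range, so the TAC arrays were split more widely than those of any other collagen. The averaged difference was 0.71 ± 0.29 (limma adjusted p = 0.349), a 1.64-fold higher mean after TAC with a 95% interval of 1.07 to 2.53. It was 0.51 ± 0.41 in control and 0.92 ± 0.41 in cKO hearts, the latter 0.51 without cKO TAC 2, and the average was 0.51 without cKO TAC 2 and 0.42 without the arrays of high Myl7. Its partner Col8a2 had means of 6.03 ± 0.25 after sham and 6.03 ± 0.05 after TAC in control hearts, of 6.05 ± 0.16 and 6.08 ± 0.19 in cKO hearts, and a difference of 0.015 ± 0.086. The 250 bases before the RefSeq start of Col8a1 (chr16:57754738-57754987, minus strand, GRCm38.p6) are shown because this gene had the widest range of the family, with GC boxes in capitals.
Col8a1: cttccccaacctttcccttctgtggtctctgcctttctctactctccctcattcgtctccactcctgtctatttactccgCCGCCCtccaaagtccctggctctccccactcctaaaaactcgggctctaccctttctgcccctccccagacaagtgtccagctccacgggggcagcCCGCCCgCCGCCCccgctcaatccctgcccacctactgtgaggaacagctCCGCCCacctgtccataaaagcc
All 4 GC boxes lie on the opposite strand and begin 170, 73, 66 and 23 bases before the start, and none overlaps another.

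Collagen IV is the network of basement membranes. Col4a1 and Col4a2, its most widespread chains, had smaller differences than Col8a1. Col4a1 read 6.97, 7.16, 7.33 and 7.43 after sham and 7.37, 7.34, 7.16 and 7.80 after TAC in control hearts, and 7.66, 7.36, 7.14 and 7.19 after sham and 7.32, 7.57, 7.22 and 6.94 after TAC in cKO hearts. Its means thus stood higher after TAC in control hearts (0.20 ± 0.16) and lower in cKO hearts (-0.07 ± 0.16), with an average of 0.06 ± 0.11. Col4a2 differed by 0.15 ± 0.14 in control and -0.10 ± 0.14 in cKO hearts, and by 0.03 ± 0.10 on average, around group means of 7.54 ± 0.22, 7.69 ± 0.22, 7.67 ± 0.19 and 7.58 ± 0.20. Of the 3 sham arrays of high Atf3, cKO sham 1 and control sham 4 are the highest sham arrays of both genes. Without those 3 arrays the averaged differences were 0.19 for Col4a1 and 0.14 for Col4a2, still not past the test, and the part of Atf3 in these values was not tested. Neither averaged difference kept its sign, since leaving out control TAC 4 gave averages of -0.0037 for Col4a1 and -0.027 for Col4a2.

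The other collagen IV chains, known from kidney, lung and smooth muscle basement membranes, differed little. Averaged over genotype the differences were 0.09 ± 0.08 for Col4a3, 0.03 ± 0.07 for Col4a4, -0.04 ± 0.07 for Col4a5 and 0.02 ± 0.06 for Col4a6. Their group means ran from 4.93 to 5.07 for Col4a3, 5.22 to 5.30 for Col4a4, 5.36 to 5.41 for Col4a5 and 4.45 to 4.57 for Col4a6. Each of these ranges is smaller than the largest SD within a group of the same gene, such as 0.23 for Col4a5 in control sham.

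FACITs sit on the surface of fibrils and link them to other matrix. Col14a1, found where fibrils bear load, read 6.05, 5.76, 6.69 and 6.54 after sham and 6.05, 6.54, 6.11 and 7.01 after TAC in control hearts, and 6.10, 6.58, 5.88 and 5.84 after sham and 6.85, 7.85, 6.46 and 6.17 after TAC in cKO hearts. In cKO hearts all 4 TAC arrays lay above the sham mean and 2 lay above every sham array, and the difference was 0.73 ± 0.32 (limma adjusted p = 0.726), 0.39 without cKO TAC 2 and 0.375 without the arrays of high Myl7. In control hearts it was 0.17 ± 0.32. The average of 0.45 ± 0.23 was 0.28 without cKO TAC 2. Col12a1, of tendon and loaded tissue, read 5.81 on cKO TAC 2 and 4.18 to 5.0 on the other 15 arrays, and its averaged difference of 0.17 ± 0.19 was 0.0075 without that array. Col16a1 had means of 5.75 ± 0.09 after sham and 5.82 ± 0.08 after TAC in control hearts, of 5.67 ± 0.09 and 5.84 ± 0.14 in cKO hearts, and a difference of 0.12 ± 0.06 (adjusted p = 0.432). The other FACITs, Col9a1, Col9a2, Col9a3, Col19a1, Col20a1 and Col22a1, had averaged differences from -0.11 (Col20a1) to 0.08 (Col22a1). In control hearts Col20a1 was 0.19 ± 0.10 lower after TAC by its mean, at an adjusted p of 0.641.

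Collagen VI forms beaded filaments between basement membranes and the interstitium. Col6a1 read 7.01, 7.22, 7.41 and 7.38 after sham and 7.74, 7.58, 7.39 and 7.87 after TAC in control hearts, and 7.49, 7.48, 7.31 and 7.05 after sham and 7.58, 8.25, 7.31 and 7.19 after TAC in cKO hearts. In control hearts 3 of 4 TAC arrays lay above every sham array, and its difference there, 0.39 ± 0.19, had the smallest p of the collagens in that comparison (limma adjusted p = 0.600). It was 0.25 ± 0.19 in cKO hearts, 0.03 without cKO TAC 2, and 0.32 ± 0.13 on average (adjusted p = 0.363). Col6a2 read 7.02, 7.21, 7.49 and 7.40 after sham and 7.55, 7.57, 7.04 and 7.78 after TAC in control hearts, and 7.33, 7.24, 7.03 and 6.71 after sham and 7.41, 7.67, 7.50 and 7.25 after TAC in cKO hearts. In both genotypes 3 of 4 TAC arrays of Col6a2 lay above every sham array. Its average of 0.29 ± 0.12 had the smallest adjusted p of the family, 0.335, and it was the least changed without cKO TAC 2 (0.26) or without the arrays of high Myl7 (0.28) among the 5 genes named above.

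Col6a3, the third main chain, had means of 6.21 ± 0.26 after sham and 6.34 ± 0.22 after TAC in control hearts, and 6.09 ± 0.35 after sham and 6.28 ± 0.43 after TAC in cKO hearts, with an averaged difference of 0.16 ± 0.15, or 0.065 without cKO TAC 2. The chains that can take its place, Col6a4, Col6a5 and Col6a6, had averaged differences of 0.10 ± 0.07, -0.14 ± 0.07 and 0.015 ± 0.097. Col6a4 had means of 5.16 ± 0.21, 5.26 ± 0.10, 5.13 ± 0.09 and 5.23 ± 0.07, and Col6a5 of 5.50 ± 0.18, 5.41 ± 0.04, 5.54 ± 0.13 and 5.35 ± 0.13, in the same order of groups. The multiplexin Col15a1, of muscle and capillary basement membranes, read 6.82, 6.69, 7.36 and 7.41 after sham and 7.55, 7.44, 7.0 and 7.90 after TAC in control hearts, and 7.39, 7.42, 6.72 and 6.84 after sham and 7.37, 7.92, 7.18 and 6.83 after TAC in cKO hearts. The TAC arrays of control hearts exceeded all sham arrays in 3 of 4 mice and those of cKO hearts in 1 of 4. The difference was 0.40 ± 0.25 in control hearts, 0.23 ± 0.25 in cKO hearts (0.03 without cKO TAC 2) and 0.32 ± 0.18 on average. Col18a1, the source of endostatin, differed by 0.07 ± 0.06, with group means of 5.79 ± 0.13, 5.80 ± 0.06, 5.66 ± 0.04 and 5.78 ± 0.18. The anchoring-fibril gene Col7a1 and the remaining genes Col13a1, Col17a1, Col23a1, Col25a1, Col26a1 and Col28a1 had averaged differences from -0.10 (Col28a1) to 0.01 (Col17a1), and that of Col25a1 in control hearts was -0.20 ± 0.12.

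The second question was whether the collagens differed by genotype. No collagen gene passed in cKO against control hearts. With limma, 0 of 43 passed after sham (0.0234% of all probe sets passed), 0 of 43 after TAC (0.00469%) and 0 of 43 averaged over surgery (0.0188%). Differences were small and mostly negative: 11 genes were positive and 32 negative after sham (median -0.06), 14 and 29 after TAC (median -0.03), and 13 and 30 averaged over surgery (median -0.04), where 50.1%, 47.9% and 48.7% of all probe sets were positive. With each array centred on its median the splits were 22 positive and 21 negative after sham and 20 and 23 averaged over surgery. Under that setting 66.1% and 60.9% of all probe sets were positive, against 51.2% and 46.5% of the collagen genes. The splits also turned on single arrays. After TAC the count of positive genes was 22 without cKO TAC 1 and 6 without cKO TAC 2. Averaged over surgery it was 4 without cKO TAC 2 and 8 without control TAC 3, and after sham it was 5 without control sham 1 and 7 without cKO sham 2. At an unadjusted p under 0.05, 1 gene was lower and 0 higher after sham (4.72% and 5.96% of all probe sets), 1 lower and 0 higher after TAC (3.75% and 3.83%), and 2 lower and 0 higher averaged over surgery (6.68% and 8.24%). The 2 averaged over surgery became 0 without any 1 of cKO TAC 1, cKO sham 4, control TAC 2 and control sham 2, without the arrays of high Myl7, and with quantile normalization or median centring. They became 1 without any 1 of cKO TAC 4, cKO sham 2, cKO sham 3, control TAC 1 and control sham 3, 4 without cKO TAC 3 and 5 without control sham 4. The 1 after TAC became 0 without cKO TAC 1 or control TAC 1, and the 1 after sham became 0 without any 1 of cKO sham 2, cKO sham 4, control sham 2 and control sham 3 and 2 without cKO sham 1 or control sham 4.

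The genotypes overlapped in the fibrillar genes that make up most collagen. Averaged over surgery Col1a1 differed by 0.05 ± 0.18, Col1a2 by 0.06 ± 0.20 and Col3a1 by 0.06 ± 0.14, with 95% intervals that reach from -0.32 to 0.43, from -0.35 to 0.48 and from -0.24 to 0.36. The intervals leave room for a difference of either sign of up to about the size seen after TAC. Leaving out cKO TAC 2 gave -0.07, -0.08 and -0.07. Col8a1 differed by 0.22 ± 0.29 (0.02 without cKO TAC 2), Col14a1 by 0.12 ± 0.23 (-0.05), Col6a1 by 0.01 ± 0.13, Col4a1 by -0.02 ± 0.11 and Col4a2 by 0.01 ± 0.10.

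Apart from Col6a6, whose range over the arrays was 1.12, the genes of smallest p had narrow spreads (ranges of 0.73 or less) and small differences. Col27a1, a fibrillar collagen of developing cartilage, read 6.25, 6.70, 6.25 and 6.30 after sham and 6.42, 6.48, 6.34 and 6.30 after TAC in control hearts, and 6.23, 6.14, 6.23 and 6.18 after sham and 6.02, 6.26, 6.39 and 6.27 after TAC in cKO hearts. After sham its 4 cKO arrays all lay below its 4 control arrays, the one collagen for which this held, against 2.32% of all probe sets (lower) and 2.95% (higher). After TAC 0 collagen genes were so separated, against 1.89% (lower) and 2.38% (higher), and pooled over surgery 0, against 0.0563% and 0.0469%. The highest cKO array and the lowest control arrays were 6.23 and 6.25. The difference after sham was -0.18 ± 0.10 (limma adjusted p = 0.547), -0.07 without control sham 2, and averaged over surgery it was -0.17 ± 0.07 (adjusted p = 0.304).

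Col20a1 read 5.56, 5.64, 5.70 and 5.22 in control sham and 5.41, 5.29, 5.25 and 5.21 in cKO sham, so that 3 control arrays lay above all cKO arrays and 1 among them. Its difference was -0.24 ± 0.10 after sham (adjusted p = 0.425) and -0.16 ± 0.07 averaged over surgery (adjusted p = 0.323). The transmembrane collagen gene Col23a1 differed by -0.13 ± 0.06 and the cartilage gene Col9a3 by -0.15 ± 0.07 averaged over surgery, at adjusted p of 0.356 and 0.364 in the limma fit. After sham these were -0.14 ± 0.09 and -0.20 ± 0.11, and Col26a1 differed by -0.17 ± 0.10. After TAC, Col23a1 differed by -0.12 ± 0.09, Col27a1 by -0.15 ± 0.10, Col4a6 by -0.11 ± 0.09 and Col11a2 by -0.11 ± 0.08.

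Col6a6 had the smallest p after TAC. It read 7.03, 6.51, 6.60 and 6.41 in control TAC and 5.91, 6.43, 6.41 and 6.30 in cKO TAC, after 6.47, 6.58, 6.41 and 6.30 in control sham and 6.28, 6.60, 6.44 and 6.40 in cKO sham. The highest of its 16 values is control TAC 1 and the lowest cKO TAC 1, and the other 14 lie between 6.28 and 6.60. The difference between genotypes after TAC was -0.38 ± 0.14 (limma adjusted p = 0.569), and -0.24 without control TAC 1. A second probe set of Col6a6, of lower level, had TAC differences of the same sign, 0.15 in control and -0.25 in cKO hearts against 0.20 and -0.17 in the first.

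The third question was whether the response to TAC differed by genotype, which the interaction tests. No collagen gene passed in limma (0 of 43, against 0.0% of all probe sets), and 0 were past an unadjusted p of 0.05, where 1.65% of all probe sets were higher and 2.05% lower. Of the 43 genes, 32 had a positive interaction and 11 a negative one (median 0.04), where 46.5% of all probe sets were positive. A positive interaction means a TAC difference of higher value in cKO hearts, which can be a smaller decrease. Col20a1, for instance, differed by -0.19 in control and -0.025 in cKO hearts. The split was even under several settings: 21 positive and 22 negative without cKO TAC 2, 21 and 21 without control sham 2, 22 and 19 without the 6 arrays of high Myl7, and 21 and 22 with each array centred on its median. In the same order, 47%, 47.1%, 47.6% and 35.4% of all probe sets were positive. With median centring the share of positive collagens (48.8%) thus stayed above that of all probe sets. The smallest p belonged to Col6a6 (-0.36 ± 0.19), Col25a1 (0.21 ± 0.16), Col14a1 (0.56 ± 0.45), Col4a2 (-0.24 ± 0.20) and Col4a1 (-0.27 ± 0.23). Without cKO TAC 2 the interaction of Col14a1 was 0.23, and without the 6 arrays of high Myl7 it was -0.07. Both chains of the collagen IV pair stood on the same side, with a 95% interval of -0.65 to 0.17 for Col4a2 and -0.75 to 0.21 for Col4a1.

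Across the 16 arrays some collagen genes spread widely and most spread little. The following counts describe the values and were chosen after they were seen. In 12 of the 43 genes (27.9%) the highest array exceeded the lowest by more than 1 on the log2 scale, as in 16.7% of all tested probe sets. They are Col8a1 (range 2.65), Col14a1 (2.09), Col1a2 (1.69), Col12a1 (1.63), Col1a1 (1.47), Col3a1 (1.38), Col6a1 (1.24), Col15a1 (1.23), Col6a6 (1.12), Col6a3 (1.10), Col6a2 (1.07) and Col5a2 (1.04). In 10 of the 12 the highest array was cKO TAC 2; the exceptions were Col6a6, highest on control TAC 1, and Col6a2, highest on control TAC 4. As a median over the 12 genes, cKO TAC 2 lay 0.88 above the mean of the gene and control TAC 4 lay 0.43 above it. Control sham 1 and cKO sham 4 were lowest, at -0.40 and -0.41. All 12 had a positive difference after TAC in control hearts (median 0.23), 11 of 12 in cKO hearts (median 0.34) and all 12 averaged over genotype (median 0.32). The highest array of each of these genes was a TAC array, so the choice by range in part fixed this direction. In cKO hearts without cKO TAC 2, Col6a6 (-0.22), Col5a2 (-0.045) and Col12a1 (-0.015) were negative. The rest ran from 0.0042 for Col6a3 to 0.51 for Col8a1.

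**Figure D3:**
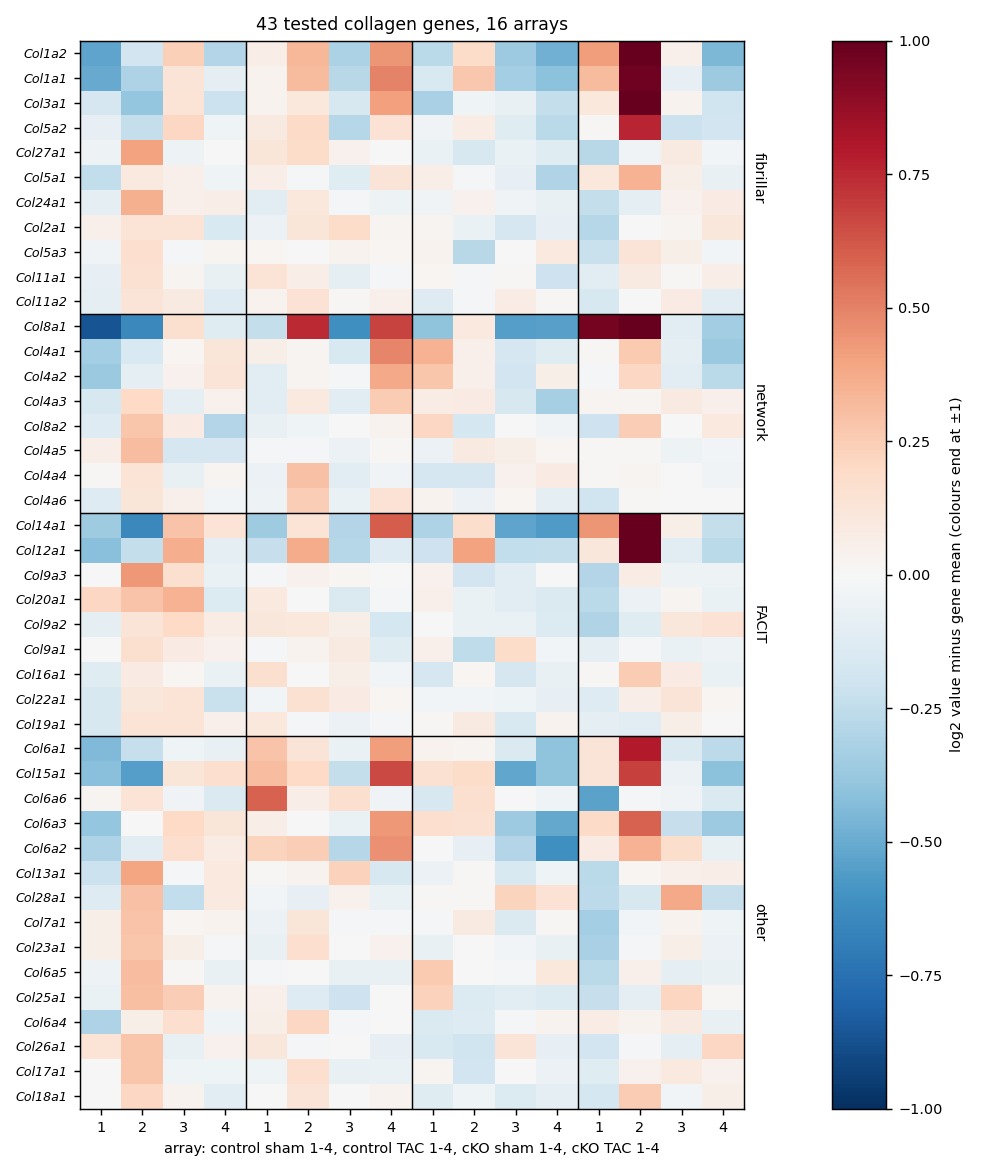
Log2 value minus the mean of the gene for the 43 tested collagen genes (rows, by type and within a type by range) on the 16 arrays (columns, by group); colours end at ±1. The strongest red column is cKO TAC 2, highest in 10 of the 12 genes of range above 1, and a paler red column is control sham 2, highest in 14 of the other 31 and tied in 1.

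The other 31 genes had ranges of 0.30 to 0.86 and their median difference after TAC was 0.01. They include the cartilage and epithelial collagens and collagens IV, V (Col5a1 and Col5a3), XVI and XVIII. Of the 31, 14 were highest on control sham 2, with Col19a1 tied between that array and control sham 3, and 15 were lowest on cKO TAC 1. Of all probe sets tested, 10.4% were highest on control sham 2 and 7.42% lowest on cKO TAC 1. As a median over these genes control sham 2 lay 0.20 above and cKO TAC 1 lay 0.19 below the mean of the gene (0.20 and -0.19), while the same medians over all 21333 probe sets were -0.0081 and 0.0081. With all 16 arrays, the negative differences of the genotype comparison lay mostly in this set. Averaged over surgery 26 of 31 were negative (median -0.05), against 4 of the 12 genes of wide range. This contrast rested on cKO TAC 2. Without it, only Col8a1 (0.02) and Col12a1 (0.0025) of the 12 were positive, and the others ran from -0.22 (Col6a6) to -0.047 (Col14a1).

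Chains that assemble into 1 molecule were compared array by array. Col1a1 and Col1a2 had the same 4 highest arrays (control TAC 2 and 4, cKO TAC 1 and 2) and the same 4 lowest (control sham 1, cKO sham 3 and 4, cKO TAC 4). From array to array the difference between the chains spanned 0.38, while the chains alone spanned 1.47 and 1.69. The 4 highest arrays of collagen I were also those of Col8a1, which is no chain of it. Col8a1 read 9.37 on cKO TAC 2, 8.54 on cKO TAC 1, 8.33 on control TAC 2 and 8.26 on control TAC 4. The mean of the fibroblast markers was highest on these arrays too (8.54, 8.16, 8.01 and 8.20). Sharing high arrays was thus not particular to chains of 1 molecule. Col4a1 and Col4a2, a head-to-head gene pair, also shared their 4 highest arrays (cKO sham 1, cKO TAC 2, control sham 4 and control TAC 4), with a range of 0.35 in their difference against 0.86 and 0.75 alone. These 4 arrays are not those of collagen I, with which they share control TAC 4 and cKO TAC 2. By the RefSeq starts of the promoter windows, the genes of the pair start 21 bases apart on opposite strands. The RefSeq coordinates of the Col4a1 gene reach further, to base 11312889. Col4a1 is read towards lower coordinates and Col4a2 towards higher ones, so the bases between these starts lie inside both transcripts. The bases from the start of Col4a2 to that of Col4a1 (chr8:11312805-11312826, plus strand, GRCm38.p6), are shown because the pair shares them; capitals mark a GC box that begins at base 8.
Col4a2 to Col4a1: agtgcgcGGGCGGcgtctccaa
The other pairs had fewer arrays in common. Col4a3 and Col4a4 shared 2 of their 4 highest arrays, Col4a5 and Col4a6 shared 1, Col5a1 and Col5a2 shared 2, and Col8a1 and Col8a2 shared 1, with a range of 2.46 in the difference of the collagen VIII chains. For Col6a1 and Col6a2 a tie left the highest arrays undefined, and 2 of their 4 lowest were shared. Col6a1 and Col6a3, also tied at the top, shared 3 of their 4 lowest arrays. The range of their difference was 0.46, against 1.24 and 1.10 alone. For Col4a1 and Col4a2 a tie left the 4 lowest arrays undefined.

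**Figure D4:**
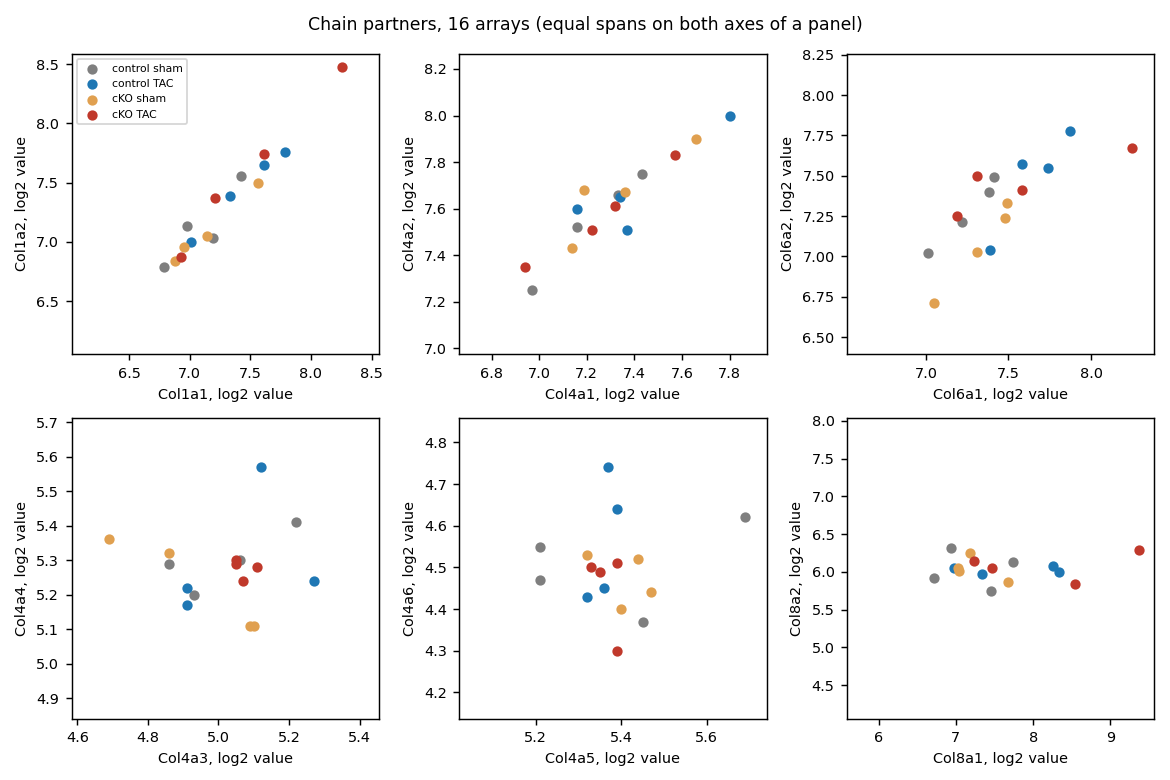
Log2 values of 6 pairs of collagen chains on the 16 arrays, coloured by group, with equal spans on both axes of a panel. Col1a1 and Col1a2 lie along 1 line with cKO TAC 2 at its end (8.26 and 8.48), Col4a1 and Col4a2 follow each other more loosely, and Col8a2 stays between 5.75 and 6.32 while Col8a1 spans 6.72 to 9.37.

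The averaged TAC differences of the collagens with the widest ranges were recomputed without each array. Leaving out cKO TAC 2 gave 0.51 for Col8a1, 0.28 for Col14a1, 0.28 for Col1a2, 0.23 for Col1a1, 0.20 for Col3a1, 0.21 for Col6a1, 0.22 for Col15a1 and 0.065 for Col6a3. It gave 0.0075 for Col12a1, 0.015 for Col5a2 and 0.26 for Col6a2. The values of these genes stayed positive without any 1 array, whereas that of Col6a6 ran from -0.050 to 0.074. Leaving out cKO TAC 4, the lowest TAC array of its group for collagen I, gave the highest value for Col8a1 (0.87), Col14a1 (0.56), Col1a2 (0.55), Col1a1 (0.45), Col3a1 (0.40), Col6a1 (0.39), Col15a1 (0.40) and Col6a3 (0.22). None passed the adjusted test in these fits.

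**Figure D5:**
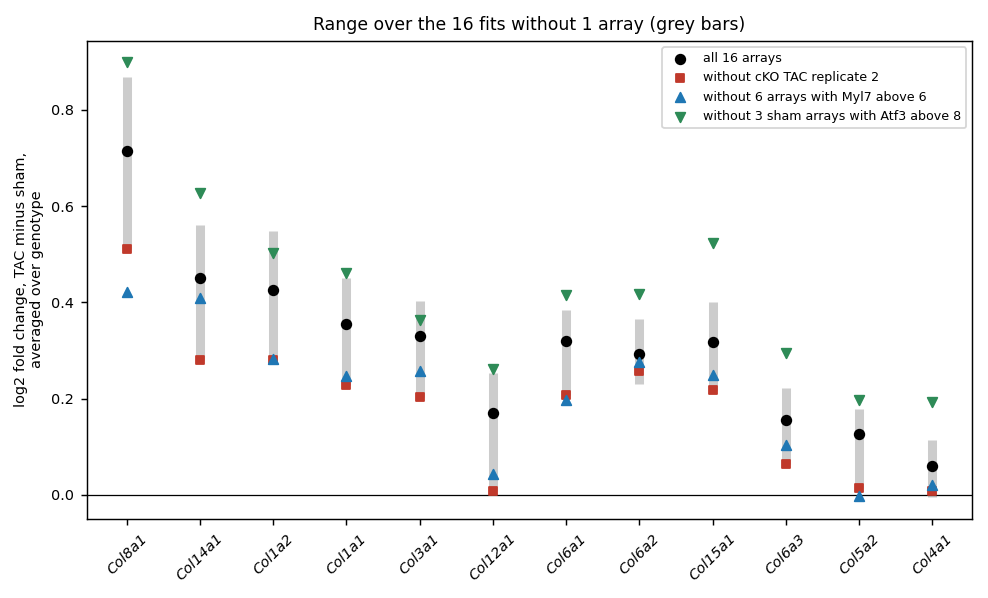
Averaged TAC difference (log2 fold change, vertical axis) of 12 collagen genes with all 16 arrays (black), without cKO TAC 2 (red), without the 6 arrays of Myl7 above 6 (blue) and without the 3 sham arrays of Atf3 above 8 (green); grey bars span the 16 fits that each leave out 1 array. Col8a1, Col14a1, Col1a1, Col1a2 and Col3a1 keep a positive value throughout, whereas Col12a1 is 0.17 with all arrays and 0.0075 without cKO TAC 2.

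Markers of fibroblasts were high on the same arrays as the collagens of wide range. Of 17 fibroblast markers, 16 were matched and above the limit, and their mean ran from 7.43 to 8.0 after sham and 7.79 to 8.20 after TAC in control hearts, and from 7.57 to 7.94 and 7.77 to 8.54 in cKO hearts, with the highest value on cKO TAC 2. After TAC 14 of 16 had a positive averaged difference (median 0.27) and 0 passed the test. The 12 macrophage markers (11 positive, median 0.36) and the 10 tested atrial markers (8 positive, median 0.10) were likewise highest on cKO TAC 2, where Myl7 read 8.83. Smooth muscle and pericyte markers, also highest on cKO TAC 2, were positive in 10 of 13 (median 0.11). Endothelial markers were positive in 12 of 13 (median 0.15) and highest on control TAC 4. Of 8 tested mesothelial markers 7 were negative (median -0.165), and of 6 Schwann cell markers 3 were positive (median 0.04). Leaving out cKO TAC 2 gave medians of 0.18 for fibroblast, 0.27 for macrophage, -0.0054 for atrial, 0.05 for smooth muscle and 0.11 for endothelial markers. For mesothelial and Schwann cell markers it gave -0.18 and 0.02. Of 11 cartilage and bone markers that were matched, 5 were above the limit. Their mean was also highest on cKO TAC 2, at 6.36 against 5.01 to 5.43 on the other 3 arrays of its group. It was nearly as high on 2 sham arrays, control sham 3 (6.06) and cKO sham 2 (6.0), and read 5.67 on control TAC 2. After TAC 4 of 5 were positive, or 2 of 5 without cKO TAC 2. The cartilage genes Acan, Matn1, Matn3, Hapln1 and Cnmd and the bone gene Ibsp were below the limit. The part of these cell types in the collagen values was not tested.

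Genes that process, bind or accompany collagen were read from lists of names. None of them passed in a TAC comparison. Of the 16 fibril-associated proteins, 4 (Dcn, Dpt, Fbln1 and Lum) also stand among the fibroblast markers, as does Loxl1. Averaged over genotype, positive differences were found in 10 of 19 folding and export genes (median 0.03), 7 of 11 trimming and crosslinking genes (0.10), 8 of 11 breakdown genes and inhibitors (0.19), 6 of 10 receptors (0.08), 14 of 15 fibril-associated proteins (0.31) and 12 of 19 genes of TGF-beta signalling (0.04). The prolyl 3-hydroxylase complex genes P3h3 and P3h4 differed by 0.26 ± 0.10 and 0.22 ± 0.09 and the foldase Ppib by 0.20 ± 0.09. Pcolce and Pcolce2, which speed removal of the propeptide, differed by 0.41 ± 0.18 and 0.33 ± 0.13, and the crosslinking enzyme Loxl1 by 0.37 ± 0.16. The gelatinase Mmp2 differed by 0.50 ± 0.20, its inhibitor Timp2 by 0.35 ± 0.12 and the cardiac inhibitor Timp4 by -0.76 ± 0.31. The collagen uptake receptor Mrc2 differed by 0.31 ± 0.10, the receptor kinase Ddr2 by 0.30 ± 0.10 and the integrin chain Itga1 by 0.20 ± 0.08. Among fibril-associated proteins, Lum differed by 0.53 ± 0.19, Fbln1 by 0.51 ± 0.18 and Tnxb by 0.22 ± 0.08, and in TGF-beta signalling the receptor Tgfbr2 differed by 0.30 ± 0.10 and the latency proteins Ltbp1 and Ltbp4 by -0.19 ± 0.08 and 0.28 ± 0.14. Adjusted p of these 18 genes ran from 0.260 to 0.438 in the limma fit.

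Within a genotype the partners of smallest p were partly others. In control hearts they were the lysyl hydroxylase Plod2 (-0.39 ± 0.12), Fkbp14 (0.37 ± 0.15) and P3h4 (0.26 ± 0.12) for folding, Loxl1 (0.41 ± 0.23), Pcolce (0.27 ± 0.25) and Tll2 (-0.10 ± 0.13) for trimming, and Mmp14 (0.35 ± 0.13), Timp4 (-0.92 ± 0.45) and Mmp2 (0.44 ± 0.29) for breakdown. They were further Itga2 (0.20 ± 0.09), Ddr2 (0.26 ± 0.14) and Mrc2 (0.24 ± 0.14) among receptors, Thbs2 (0.42 ± 0.14), Dcn (0.26 ± 0.13) and Ogn (-0.23 ± 0.11) on fibrils, and Tgfbr2 (0.24 ± 0.14), Eng (0.18 ± 0.11) and Ltbp1 (-0.18 ± 0.11). In cKO hearts they were Ppib (0.26 ± 0.12), P3h3 (0.31 ± 0.15) and P3h4 (0.18 ± 0.12), then Pcolce2 (0.57 ± 0.18), Pcolce (0.55 ± 0.25) and Bmp1 (0.20 ± 0.12), and Timp2 (0.47 ± 0.18), Mmp2 (0.56 ± 0.29) and Fap (0.31 ± 0.16). The remaining ones were Lair1 (0.40 ± 0.14), Mrc2 (0.38 ± 0.14) and Ddr2 (0.34 ± 0.14), Tnxb (0.30 ± 0.11), Lum (0.72 ± 0.27) and Fbln2 (0.55 ± 0.23), and Tgfbr2 (0.35 ± 0.14), Smad3 (0.18 ± 0.07) and Ltbp4 (0.35 ± 0.20). All 15 fibril-associated genes tested had a positive difference in cKO hearts and 14 in control hearts, with medians of 0.36 and 0.29. Without cKO TAC 2, on which the mean of each of the 6 partner lists was highest, 14 of 15 were positive in cKO hearts with a median of 0.13. Without that array the medians in cKO hearts were -0.03 for folding (0.035 with it), 0.045 for trimming (0.20), 0.055 for breakdown (0.28), 0.04 for receptors (0.08) and 0.045 for TGF-beta signalling (0.10).

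By genotype, averaged over surgery, none of the partner genes passed. Plod2, which hydroxylates the lysines of collagen telopeptides, differed by 0.33 ± 0.08, the export factor Mia3 by 0.23 ± 0.08 and P3h1 by 0.17 ± 0.07. The endothelial TGF-beta receptors Eng and Acvrl1 differed by -0.29 ± 0.08 and -0.19 ± 0.08 and Smad7 by -0.19 ± 0.10. Without cKO TAC 2 positive differences numbered 2 of 11 among breakdown genes (6 with it) and 5 of 15 among fibril-associated proteins (10 with it). For the remaining lists the smallest p belonged to Mmp9 (-0.21 ± 0.10), Mmp13 (-0.16 ± 0.08) and Fap (-0.16 ± 0.11), to Ddr1 (0.17 ± 0.09), Itga10 (-0.10 ± 0.06) and Itgb1 (0.09 ± 0.05), to Lox (0.43 ± 0.25), Tgm2 (0.18 ± 0.12) and Adamts3 (0.10 ± 0.07), and to Lum (0.26 ± 0.19), Dcn (0.12 ± 0.09) and Emilin1 (-0.09 ± 0.08).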

How the data were processed

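Total RNA was labelled with biotin and hybridised to Affymetrix Mouse Gene 1.0 ST arrays, per the labels' protocols. The authors deposited log2 values with 2 decimals, from 2.34 to 14.35, with array medians of 4.85 to 4.975. The submitters' processing notes name MAS5 with no version. The log base was read from the values. The scaling of the arrays, not given in the sources used here, would hide a change common to all genes if it equalises arrays. Columns without a sample numbered 0.

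Probe sets were named through the platform annotation, and all 44 RefSeq (GRCm38.p6) symbols of this form had a probe set (46 in all). Col6a5 and Col6a6 had 2 each, and the one of highest mean was used. Promoter windows, the 250 bases before each start, came from RefSeq tables of the same build and matched 35 of the 44 genes. Motifs were searched as exact letters.

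The 21333 probe sets with a mean above the 40th percentile (4.37) entered 1 limma fit (limma 3.58.1, R 4.3.3) of 4 group means on 16 arrays with 12 residual degrees of freedom, an empirical Bayes trend and two-sided tests. A gene passed at a p under 0.05 after Benjamini-Hochberg adjustment. The fit was tested on simulated data. Comparisons that share groups share arrays and are given side by side. Standard errors are those of the fit and the number of arrays limits the precision.

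The members and the gene lists were chosen with earlier results of these data known. Values are given for collagens I, III, IV, V, VI, VIII, XII, XIV, XV, XVI and XVIII, for the 5 members of smallest p in each comparison and for the 3 genes of smallest p in each partner list in the TAC comparisons and the averaged genotype comparison. The rest are given by range. Arrays named by Myl7 or Atf3, the classes by range, the pairs of chains and the counts by direction or unadjusted p were chosen after the values were seen, as were the differences of group means without cKO TAC 2. Alternatives were each array left out, a replicate block, the mean over probe sets of a gene, fits of the compared groups alone, no trend, no low-value filter or one at the 60th percentile, median centring and quantile normalization. Figures were drawn with matplotlib 3.10.9.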

Additional observations from a re-analysis of the deposited data

Results flagged for a closer look

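In 10 of 172 groups of 4 arrays (5.81%), 1 collagen value lay far from the other 3, with a gap that exceeds Dixon's 95% critical value; chance gives about 1 in 20. On control sham 2, Col27a1 was high at 6.70, Col7a1 at 5.99 and Col17a1 at 5.50. On control TAC 2, Col17a1 was high at 5.39. In cKO sham, Col12a1 was high at 5.0 on replicate 2, Col25a1 high at 5.30 on replicate 1 and Col11a1 low at 4.87 on replicate 4. In cKO TAC, Col28a1 was high at 5.37 on replicate 3, and Col13a1 and Col4a6 were low at 5.12 and 4.30 on replicate 1. The high values of cKO TAC 2 are not among them, since their gaps stayed within the critical value. For Col8a1, at 9.37, replicate 1 of that group was also high, at 8.54. For Col3a1, at 8.04, the other 3 arrays of the group spread from 6.85 to 7.15.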

How the results depend on the processing

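Over 26 alternative settings, 0 collagen genes passed the adjusted limma test in any of 179 combinations of setting and comparison; fits of the compared groups alone were run for the 4 comparisons within a genotype or surgery. Over all settings the lowest adjusted p of any named collagen was 0.109. Of 1380 recomputed differences of named collagens, 1343 kept their direction and 37 reversed, nearly all of them averaged TAC differences near 0. With quantile normalization these were Col8a2, Col6a6 and Col5a3 (-0.010 each), and with the mean of the probe sets Col6a6 (-0.018). The next 2 alternatives were added after seeing the data. Without the 6 arrays of high Myl7, Col5a2 (-0.0025), Col4a4 (-0.066) and Col5a3 (-0.027) reversed in the averaged TAC comparison, Col27a1 in cKO against control after TAC (0.01) and Col14a1 in the interaction (-0.068). Without the 3 sham arrays of high Atf3, Col4a4 (-0.018), Col6a6 (-0.052) and Col5a3 (-0.0017) did. Leaving out each array gave averaged TAC differences of -0.0037 to 0.11 for Col4a1, -0.027 to 0.063 for Col4a2, -0.019 to 0.049 for Col4a4, -0.066 to 0.014 for Col4a5, -0.0092 to 0.045 for Col4a6, -0.038 to 0.036 for Col5a3, -0.050 to 0.074 for Col6a6 and -0.032 to 0.063 for Col8a2. With median centring, 66.1% of all probe sets were positive between genotypes after sham and 60.9% averaged over surgery. Positive collagen differences between genotypes then numbered 22 and 20. They numbered 7 after sham and 8 after TAC with the filter at the 60th percentile, which tests fewer genes. With each array left out they ranged from 5 to 16 after sham, 6 to 22 after TAC and 4 to 16 averaged over surgery. The cause was not tested. Replicate numbers did not pair the arrays (r of -0.20 to 0.19 over 24 pairs of the same number, 6 over 0.1, and 3 of 16 arrays closest to their own number), and with a replicate block 0 collagen genes passed, as did 0 of all probe sets after sham and 2 averaged over surgery (5 and 4 without it). Over the alternatives the probe sets that passed numbered 0 to 27 after sham, 0 to 2 after TAC and 1 to 81 averaged over surgery for genotype, and 0 to 5 in control hearts, 0 to 1 in cKO hearts and 0 to 1 averaged for TAC.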

Other observations

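The endothelial markers, whose cells make much of the basement membrane collagen of the heart, were negative in 13 of 13 genes in cKO against control hearts averaged over surgery (median -0.20), with 0 past the test. Col4a1 and Col4a2 differed by -0.02 ± 0.11 and 0.01 ± 0.10 in the same comparison, and Col18a1 by -0.07 ± 0.06. The untested Col10a1 read between 3.65 and 4.23 on the 16 arrays, with its lowest value on cKO TAC 1.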
